A study of Mus musculus with 4 samples.

Results

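The activity-regulated transcription factors of the Fos, Jun and Egr families, with the stress-responsive factor Atf3 and the synaptic protein gene Arc, were followed in the prefrontal cortex of transgenic and control mice. They were chosen by gene name, as every probe set of the array whose single gene symbol was Fos, Fosb, Fosl2, Jun, Junb, Jund, Egr1, Egr2, Arc or Atf3. Of these 10 genes, 9 had at least 1 probe set, which makes 9 of the 8251 genes named on the array and 14 of its 12422 probe sets. No probe set carried Arc as its single name, so Arc was not analysed here. The transgenic samples were 2 pools of prefrontal cortex RNA from females overexpressing human synaptic AChE. AChE, or acetylcholinesterase, hydrolyses acetylcholine at synapses. Control samples were 2 pools from the same region of female FVB/N mice. Each pool held RNA of 4 mice and was measured on 1 array. No label names the promoter of the transgene, the strain background of the transgenic mice or the age of the animals. Nor do the labels say that pools within a group came from separate mice, and the p-values then reflect only the spread among these pools, which may be technical.

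Immediate early genes are transcribed within minutes of neuronal firing, without new protein synthesis, mainly through kinases that act on factors already bound to their promoters. Fos and Jun proteins pair through leucine zippers to form the transcription factor AP-1, whose makeup shifts as Fosb and Fosl2 replace Fos and as Junb and Jund replace Jun. Egr1 and Egr2 are zinc finger factors that bind GC-rich sites, and Atf3 is a zipper protein that can pair with Jun. In the cortex these genes are widely used as markers of recently active neurons, and they also respond to handling, injury and other stress.

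The promoters of 4 members are shown for the elements through which such genes are known to be switched on: the CRE, bound by CREB, and the SRE with its CArG box, bound by serum response factor. The stretches are the last 150 bases before the gene start in the RefSeq promoter table of mouse assembly GRCm38.p6, with found words in capitals. Fos (chr12:85473740-85473889, plus strand), Egr2 (chr10:67537719-67537868, plus strand) and Atf3 (chr1:191183334-191183483, minus strand) hold the core TGACGT of the CRE. In Egr2 and Atf3 it is read as its reverse complement, ACGTCA. Jun (chr4:95052223-95052372, minus strand) holds none of the words searched.
Fos: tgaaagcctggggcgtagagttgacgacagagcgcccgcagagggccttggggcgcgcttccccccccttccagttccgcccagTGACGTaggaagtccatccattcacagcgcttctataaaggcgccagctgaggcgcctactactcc
Egr2: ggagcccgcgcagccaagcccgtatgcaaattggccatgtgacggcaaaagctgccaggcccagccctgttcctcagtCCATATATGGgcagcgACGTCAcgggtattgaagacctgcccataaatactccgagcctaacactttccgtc
Atf3: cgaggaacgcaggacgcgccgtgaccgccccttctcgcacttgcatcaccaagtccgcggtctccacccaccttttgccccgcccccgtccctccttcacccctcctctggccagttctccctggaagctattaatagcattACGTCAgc
Jun: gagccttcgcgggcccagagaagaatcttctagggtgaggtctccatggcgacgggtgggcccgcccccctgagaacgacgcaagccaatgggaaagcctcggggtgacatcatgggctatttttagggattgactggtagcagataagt

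In Fos the core lies 66 bases before the start, in Egr2 56 bases before it and in Atf3 8 bases before it. The longer capital run in Egr2 is a CArG box, 72 bases before the start. The table held promoters of 8 of the 10 genes, with 5 windows for Egr2, of which the one shown is the first of those that held the most kinds of word. Words were searched on both strands of the 250 bases before each start. Among the 8 genes the core TGACGT was found only in Fos, Egr2 and Atf3, which are all among the 4 shown. It was found in 6.47% of all 32851 promoter windows of the table and in 7.29% of its 27025 genes. In Egr2 it was found in only some of the 5 windows. The core was added to the search after the sequences had been seen. The full CRE, TGACGTCA, was found in none of the windows of the 8 genes, against 1.55% of all windows. The AP-1 words TGAGTCA and TGACTCA were likewise found in none of them, against 4.46% of all windows. A CArG box was found only in Egr2 among the 8 genes, in 4 of its 5 windows, and in 1.47% of all windows and 1.62% of all genes. Of the Egr words GCGTGGGCG and GCGGGGGCG, the second was found in Fosb and in Fosl2, and either was in 3.06% of all windows and 3.47% of all genes. Every full CRE also holds the core, and no other words overlapped in these genes. A word that was not found says only that these letters are not in the window.

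The arrays were close in brightness, with a median intensity of 87.45 and 88.2 in the transgenic pools and 87.4 and 86.6 in the control pools. Depth is set by the number of arrays, 2 a group, which limits the precision of every value. The mouse gene Ache read 365.3 and 355.6 in the transgenic pools, against 599.5 and 621.9 in the control pools (log2 change -0.76 ± 0.14 SE, limma adjusted p = 0.00768). It was designed on the mouse transcript and its match to the human transgene is not stated, so it does not check the labels. Xist, the RNA expressed from the inactive X chromosome of females, read 178.5 and 228 in the transgenic pools but 29.3 and 21.1 in the control pools, although all pools are labelled female. The highest value of the Y-linked genes Uty, Kdm5d and Eif2s3y on any array was 28, for Uty in control replicate 1. Uty read 5.4 in control replicate 2, and every other value of these genes was 13.9 or less. Both control pools share the low Xist signal, so no result could be given without them. In RNA from whole tissue, fewer cells of a type and less RNA per cell cannot be told apart.

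None of the Fos, Jun, Egr and Atf3 probe sets differed between transgenic and control cortex beyond the threshold of the test. Fos, Fosb, Jund, Egr1, Egr2 and Atf3 each had a probe set that read higher in both transgenic pools than in both control pools, with ratios from 1.18 in Fosb to 1.65 in Atf3. Jun and 1 of the 2 Junb probe sets read slightly lower in both transgenic pools, and Fosl2 overlapped.

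Intensities under 19.675, the 25th percentile over the arrays, were set to it before taking log2. The 7453 probe sets whose mean log2 value lay above the 40th percentile were tested with limma for the transgenic minus control difference, adjusted by Benjamini-Hochberg at a threshold of 0.05. Of the 14 member probe sets 10 were tested, covering all 9 genes, and 4 lay under the filter. None of the 10 passed in either direction, whereas 10% of all tested probe sets did, 5.46% higher and 4.56% lower. At an unadjusted p under 0.05, 5 of the 10 were higher (Fos, Jund, Egr1, Egr2 and Atf3) and 0 lower, against a background of 11.2% higher and 13.1% lower over all tested probe sets. In 6 of the 10 both transgenic pools lay above both control pools, and in 2 both lay below, against 23.8% and 29.9% of all tested probe sets. The median log2 change of the 10 was 0.28, and that of all tested probe sets was -0.03. These counts describe the probe sets that were tested, and no statement about all members follows from them.

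**Figure D1:**
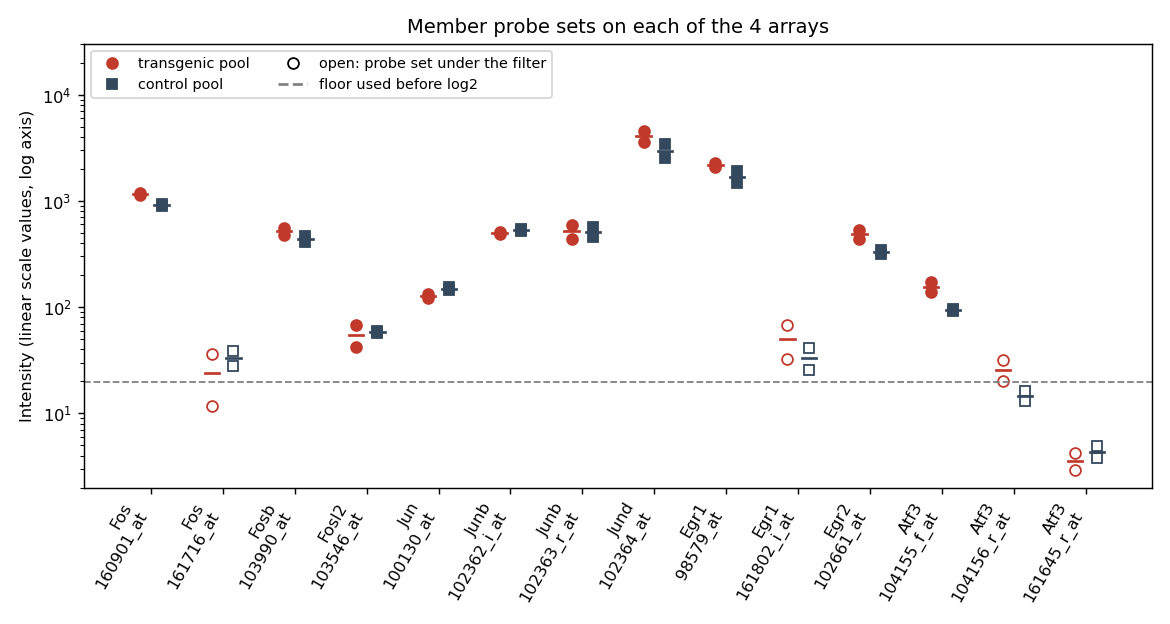
Intensity (log axis) of each member probe set on the 4 arrays, transgenic pools as red circles and control pools as dark squares, with short lines for group means, open symbols for probe sets under the filter and a dashed line at the floor of 19.675. Atf3 (104155_f_at) has the widest gap among the filled symbols, and Fos (160901_at) sits at 1134.1 and 1184.8 in the transgenic pools and 895.9 and 943.6 in the control pools. Levels of different probe sets cannot be set against each other.

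Among the Fos genes, Fos itself, the partner of Jun in classical AP-1 and the most used marker of neuronal firing, read 1134.1 and 1184.8 in the transgenic pools, against 895.9 and 943.6 in the control pools at probe set 160901_at. The groups did not overlap, and the pools of each group were close to each other. The log2 change was 0.33 ± 0.12 (SE), a ratio of 1.26 with a 95% interval of 1.04 to 1.52, and it did not pass after adjustment (limma adjusted p = 0.123). A second Fos probe set (161716_at), with no accession listed, was under the filter and read 11.6 and 36.3 in the transgenic pools and 38.3 and 27.8 in the control pools, which overlap near the floor.

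Fosb, whose stable splice form builds up with repeated stimulation, read 554.9 and 477.7 in the transgenic pools and 413.5 and 464.3 in the control pools. The lower transgenic pool lay just above the higher control pool. Its log2 change was 0.23 ± 0.15 (adjusted p = 0.397, 95% interval -0.11 to 0.57). Fosl2, a Fos-related antigen that lacks the strong activation domain of Fos, was dim, at 68.2 and 42.1 in the transgenic pools and 57.2 and 59.1 in the control pools. The control pools lay between the transgenic pools. Its log2 change of -0.12 ± 0.35 had the widest interval of the 10 probe sets, -0.91 to 0.67 (adjusted p = 0.880), and without transgenic replicate 2 it was 0.23.

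The Jun genes did not move one way. Jun, the founding AP-1 subunit, read 133.5 and 122.7 in the transgenic pools and 153.5 and 145.3 in the control pools. The transgenic pools lay below the control pools by a small margin, with a log2 change of -0.22 ± 0.20 (adjusted p = 0.553, 95% interval -0.67 to 0.22). Junb, which can restrain Jun and is itself induced by activity, was read by 2 probe sets made from the same accession. At 102362_i_at it read 505.5 and 490.1 in the transgenic pools and 524.2 and 545.8 in the control pools, with a log2 change of -0.10 ± 0.14 (adjusted p = 0.703). At 102363_r_at it read 434.2 and 596.4 in the transgenic pools and 452.9 and 561.8 in the control pools, with a log2 change of 0.01 ± 0.19 (adjusted p = 0.980). The first probe set separated the groups and the second did not, and their 95% intervals, -0.41 to 0.20 and -0.41 to 0.43, cover each other's value.

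Jund, the most constant Jun gene and the least dependent on stimulation, read 4572.3 and 3601.8 in the transgenic pools and 2520.1 and 3407.5 in the control pools. Both transgenic pools lay above both control pools, with a gap smaller than the difference between the pools of either group. Its log2 change was 0.47 ± 0.16 (adjusted p = 0.105), a ratio of 1.38 with a 95% interval of 1.08 to 1.78. Without control replicate 2, the brighter control pool, the log2 change was 0.69 with an adjusted p of 0.00341. Over the 14 alternative settings its adjusted p ranged from 0.00341 to 0.550.

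Egr1, a zinc finger factor induced by synaptic stimulation and needed for lasting plasticity, read 2069.9 and 2291 in the transgenic pools and 1921.5 and 1461.7 in the control pools at 98579_at. The control pools differed more from each other than the transgenic pools did, and control replicate 1 lay close to the transgenic pools. The log2 change was 0.38 ± 0.15 (adjusted p = 0.143, 95% interval 0.05 to 0.70). It was 0.58 without control replicate 1 (adjusted p = 0.0248) and 0.18 without control replicate 2 (adjusted p = 0.632), the ends of the range over its alternatives. The second Egr1 probe set (161802_i_at), under the filter, read 68.4 and 32.5 in the transgenic pools and 41.3 and 25.7 in the control pools, which overlap.

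Egr2, which also directs myelination in Schwann cells, read 535.9 and 436.2 in the transgenic pools and 319.4 and 346.9 in the control pools. The groups did not overlap. Its log2 change of 0.54 ± 0.16, a ratio of 1.45 with a 95% interval of 1.13 to 1.87, had the smallest adjusted p of the 10 probe sets, 0.0677. In no alternative setting did it pass, the adjusted p ranging from 0.05004 to 0.288.

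Atf3, which is induced by stress and nerve injury, had the largest difference among the members. At 104155_f_at it read 138.5 and 173.7 in the transgenic pools and 92.3 and 95.4 in the control pools, without overlap. The log2 change was 0.73 ± 0.22 (adjusted p = 0.0728), a ratio of 1.65 with a 95% interval of 1.17 to 2.33, and the adjusted p ranged from 0.0612 to 0.287 over the alternatives. In Affymetrix names the letter f marks a probe set whose probes may match a family of similar sequences. A second probe set from the same accession, 104156_r_at, read 20 and 31.5 in the transgenic pools and 13 and 16.1 in the control pools, where both control values lie at the floor. The third (161645_r_at) read 4.9 or less on every array. Neither was tested.

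**Figure D2:**
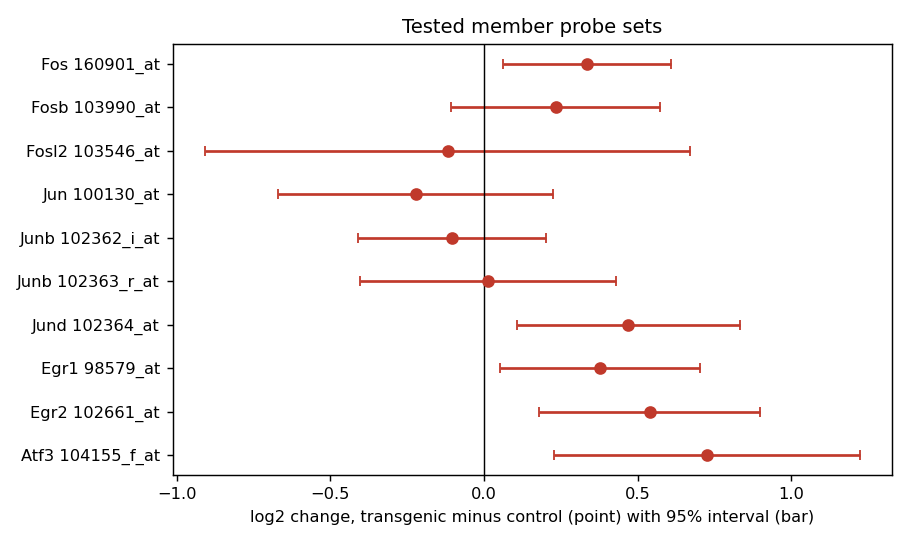
Log2 change, transgenic minus control (x axis), of the 10 tested member probe sets, with points for the limma estimate and bars for its 95% interval, not adjusted for the number of tests. The intervals of Fos, Jund, Egr1, Egr2 and Atf3 lie above 0 and those of Fosb, Fosl2, Jun and Junb hold 0, and none passed after adjustment.

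The intervals give, for each probe set alone, the range of change allowed by the spread among these pools, which may be technical. In 9 of the 10 probe sets the 95% interval stayed within 1 log2 unit of 0, and in Atf3 it reached 1.22. The smallest log2 change that passed anywhere on the array was 0.37 in size, that of the bright gene Snap25, with an SE of 0.09. Member SEs ran from 0.12 to 0.35. Of the 747 probe sets that passed, 232 had a change no larger than the 0.73 of Atf3. Pools of a group differed in the 10 probe sets by a median of 0.26 log2 units between the transgenic pools and 0.10 between the control pools, against 0.20 and 0.17 over all tested probe sets.

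**Figure D3:**
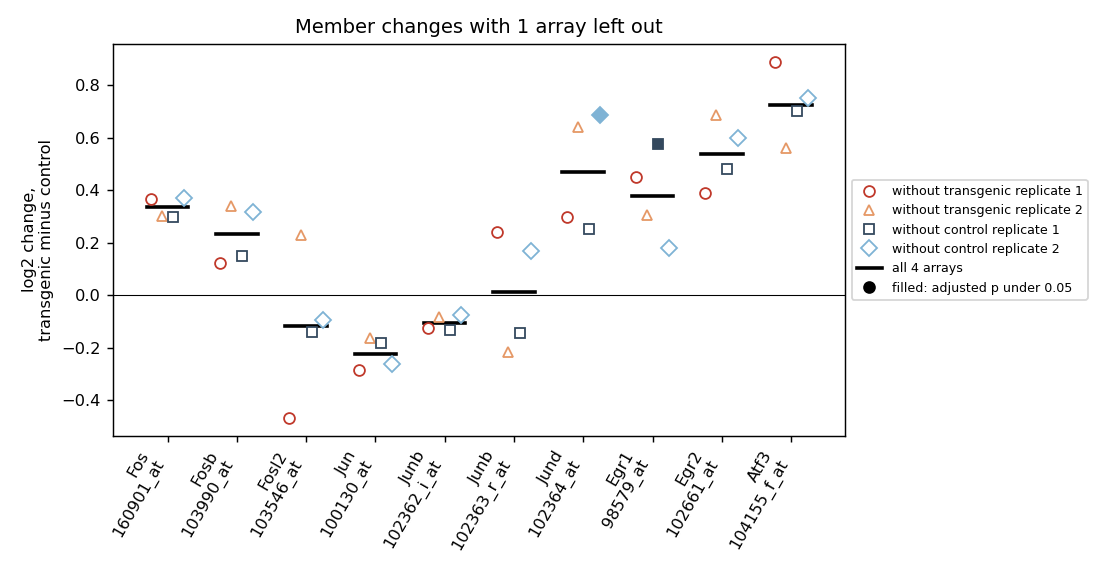
Log2 change, transgenic minus control (y axis), of the 10 tested member probe sets with all 4 arrays (black lines) and with each array left out in turn (symbols), filled where the adjusted p was under 0.05. Jund at 0.69 without control replicate 2 and Egr1 at 0.58 without control replicate 1 are the filled points.

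Other genes known to be induced by neuronal activity were each read from their brightest tested probe set. Of 49 listed genes 38 had a probe set and 30 were tested. Of these 8 rose and 0 fell, where 5% of 5701 tested genes rose and 4.49% fell. Among the 29 whose groups both averaged above the filter, 7 rose and 0 fell. The median log2 change was 0.27 over the 30 and -0.04 over all tested genes, and 22 of the 30 lay above 0. Like the members, the list was drawn up with earlier results of these data known. It therefore gives no independent support to any direction.

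The rises included secreted factors. Bdnf, the neurotrophin that strengthens active synapses, read 771.4 and 883.7 in the transgenic pools and 317.4 and 309.5 in the control pools (log2 change 1.40 ± 0.14, limma adjusted p = 0.000179). Inhba, which encodes an activin subunit, read 125.1 and 151.7 in the transgenic pools and 40.6 and 49.9 in the control pools (1.61 ± 0.27, adjusted p = 0.00506). The control pools of Inhba average under the filter, at an intensity of 49.4, so it was tested only through the pools where it is high. Scg2, a granule protein that gives rise to secretoneurin, read 1175.9 and 1280.4 in the transgenic pools and 618.1 and 723.3 in the control pools (0.88 ± 0.14, adjusted p = 0.00286). In all 3 genes the groups were far apart compared with the spread between pools.

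The others were mostly nuclear. The orphan nuclear receptor gene Nr4a1, induced along with Fos, read 1130 and 1189 in the transgenic pools and 769 and 795.8 in the control pools (log2 change 0.57 ± 0.12, adjusted p = 0.0182). Its relative Nr4a2 read 133.2 and 169.3 in the transgenic pools and 54.9 and 60.3 in the control pools (1.38 ± 0.25, adjusted p = 0.00749). The zinc finger gene Klf10 rose by 0.74 ± 0.14 (adjusted p = 0.00853), the antiproliferative gene Btg1 by 0.73 ± 0.20 (adjusted p = 0.0441) and Tiparp, an ADP-ribosyltransferase gene, by 1.0 ± 0.27 (adjusted p = 0.0464). Dusp1, the phosphatase that switches off the kinases upstream of Fos, had 0.43 ± 0.13 and did not pass (adjusted p = 0.0734), and Klf4 had 0.96 ± 0.28 (adjusted p = 0.0658, but 0.0149 without control replicate 2). Values below 0 were largest in Ier3, at -0.43 ± 0.17 (adjusted p = 0.148). Without transgenic replicate 1 only Bdnf and Scg2 of the 8 passed, without transgenic replicate 2 only Bdnf, without control replicate 1 only 5 and without control replicate 2 all but Tiparp. Without control replicate 2 Nptx1, a synaptic pentraxin gene, was also called lower (log2 change -0.68, adjusted p = 0.0201), against -0.33 and no call with all arrays (adjusted p = 0.407) and 0.03 without control replicate 1. No test compared the members with these genes.

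Dimer partners, corepressors and upstream kinases of the members gave 1 rise and 2 falls among 26 tested of 49 listed, close to the 5% higher and 4.49% lower over all tested genes, with a median of 0.07. The counts therefore show nothing about the list, and the calls are given as values of single genes. Mafg, a small Maf zipper protein, rose by 1.96 ± 0.22 at 96147_at (limma adjusted p = 0.000304). Mapk7, the kinase ERK5, fell to 25.9 and 32.9 in the transgenic pools, against 95.5 and 84 in the control pools (log2 change -1.62 ± 0.34, adjusted p = 0.0161). The stress kinase gene Mapk14, which encodes p38 alpha, fell by 0.49 (adjusted p = 0.0394). The Jun kinase genes Mapk8, Mapk9 and Mapk10 had log2 changes of -0.01, -0.60 and 0.00 and did not pass (adjusted p at least 0.302). Nab1 and Nab2, corepressors of the Egr factors, had 0.51 and 0.08 and did not pass either (adjusted p = 0.0757 and 0.789). With 1 array left out, Mafg passed each time, but Mapk14 never did (adjusted p from 0.0631 to 0.171). Mapk7 passed only without control replicate 2 (0.0206), its other values lying between 0.0518 and 0.0782. Its transgenic pools average under the filter, and when the floor was raised to the 40th percentile its log2 change was -0.82 and did not pass (adjusted p = 0.0685). The value of Mapk9 rests on transgenic replicate 1, which read 124.9, against 289.2 in transgenic replicate 2 and 279.2 and 295.2 in the control pools. Without transgenic replicate 2 its log2 change was -1.20 (adjusted p = 0.0386), and without transgenic replicate 1 it was 0.01 (adjusted p = 0.981). Called higher in 1 setting each were Atf2, a partner of Jun, without control replicate 2 (0.74, adjusted p = 0.00362) and the scaffold gene Mapk8ip1 without control replicate 1 (0.62, adjusted p = 0.0450).

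**Figure D4:**
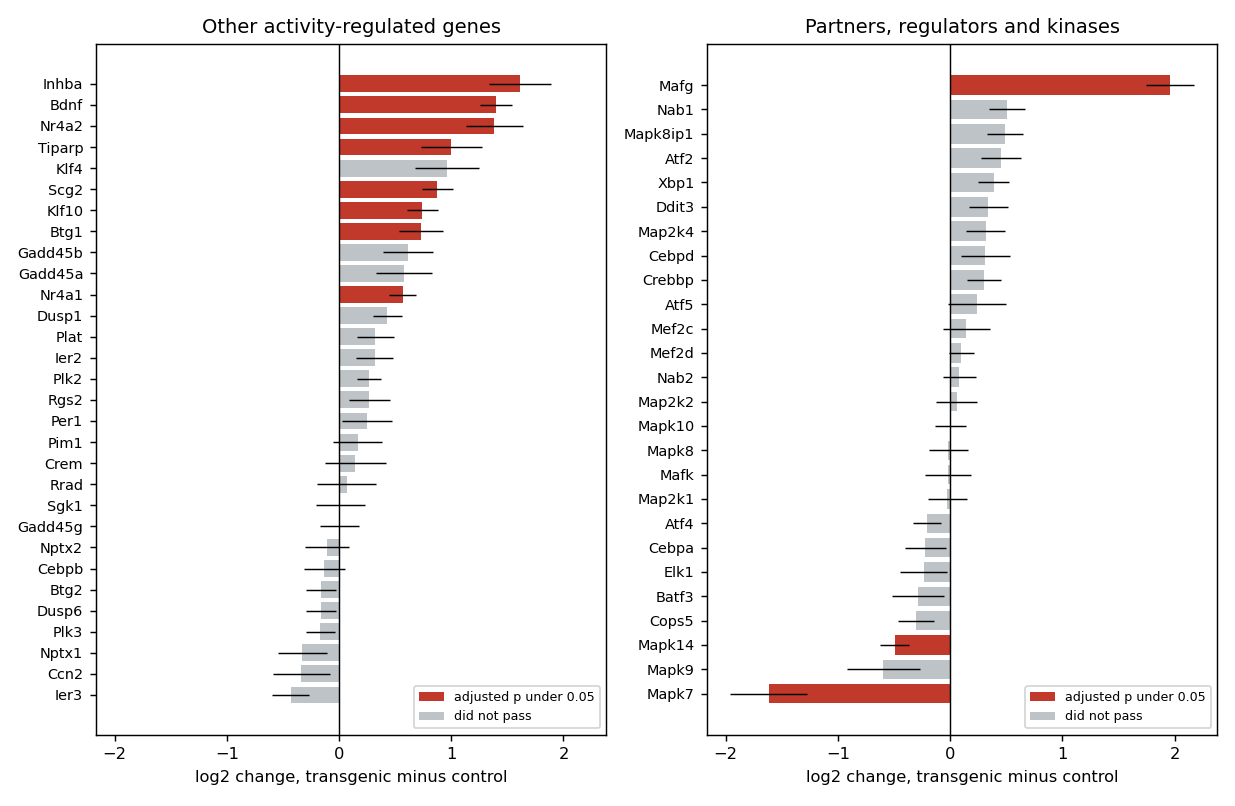
Log2 change, transgenic minus control (x axis), of 30 other activity-regulated genes (left) and 26 partners, regulators and kinases (right), as bars with SE, red where the adjusted p was under 0.05. The red bars on the left all point to higher signal, from 0.57 in Nr4a1 to 1.61 in Inhba, and on the right Mafg is higher and Mapk7 and Mapk14 are lower.

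Markers of cell types moved with the groups in part, beside 5% of 5701 tested genes that rose and 4.49% that fell. The blood genes Hba-a1 and Alas2 both rose, and their summed intensity was 8473 and 6945 in the transgenic pools against 2779 and 2396 in the control pools. Of 4 tested endothelial markers Flt1 rose and 0 fell, with summed intensities of 868 and 734 in the transgenic pools against 563 and 588 in the control pools. Cldn5, the largest part of these sums, had a log2 change of 0.56 and did not pass (limma adjusted p = 0.0686). Cdh5 (0.17) and Pecam1, which lay below 0 (-0.18), did not pass either (adjusted p = 0.809 and 0.761). Of 7 tested neuronal markers 0 rose and Snap25 and Camk2a fell. Another 2, Nefl (0.28) and Gad1 (0.33), had log2 changes above 0 and did not pass (limma adjusted p = 0.631 and 0.0846). Neuronal sums were 12867 and 15018 in the transgenic pools against 16517 and 16348 in the control pools, so the tissue had neuronal transcripts in every pool. Snap25 and, for blood, Hba-a1 make up the largest part of their sums. Of 5 astrocyte markers Aqp4 rose and 0 fell, with sums of 6343 and 6811 in the transgenic pools against 6419 and 6606 in the control pools. Only 2 of the 5, Aqp4 among them, had a log2 change above 0. Gfap (-0.49) and Aldoc (-0.23) read lower in both transgenic pools than in both control pools and did not pass (limma adjusted p = 0.176 and 0.198). Of 6 microglial markers Tyrobp fell and 0 rose, with sums of 1881 and 1670 in the transgenic pools against 2163 and 2125 in the control pools. Only 1 of the 6, Csf1r, had a log2 change above 0 (0.23). It read higher in both transgenic pools than in both control pools and did not pass (limma adjusted p = 0.411).

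Of 4 oligodendrocyte markers 0 passed with limma, and 1 had an unadjusted p under 0.05, with sums of 2853 and 3208 in the transgenic pools against 3154 and 3802 in the control pools. Of 2 striatal markers 0 passed and 0 had an unadjusted p under 0.05, with sums of 3806 and 2456 in the transgenic pools against 1856 and 3748 in the control pools. Of 2 markers of olfactory bulb and neuroblasts Eomes rose and 0 fell, with sums of 389 and 367 in the transgenic pools against 377 and 190 in the control pools. Of the choroid plexus markers 3 had a probe set and 0 were bright enough to be tested, and Kl lay at the floor on every array. Aqp4 and Eomes in the control pools and Camk2a in the transgenic pools average under the filter, so these 3 were tested only through the group where they are high. The part of these cell types in the values of the Fos, Jun and Egr genes was not tested.

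The tested probe sets with the profile most like Fos over the 4 arrays were those of Gad1, Rnf19a and Cpt1a, at Euclidean distances of 0.011, 0.013 and 0.033 between log2 values centred on their own means, where the median over 6751 probe sets was 0.53. Gad1, which encodes a GABA-synthesising enzyme of inhibitory neurons, read 3035.8 and 3198.5 in the transgenic pools and 2409.2 and 2549.3 in the control pools. The nearest to Egr1 were Phf23, Rad21 and Scd1 (0.039, 0.041 and 0.053, median 0.63). The nearest to the brighter Junb probe set were Med28, Man1a and Dynll2 (0.014, 0.015 and 0.021, median 0.39). With 4 arrays in 2 groups, many probe sets come close by their level of difference alone, and nothing about shared control follows.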

How the data were processed

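RNA pools were measured on 4 single-channel arrays. In the deposited table every array has 1 intensity for each probe set, a linear unit inferred from the values. How the authors derived it from probes is not stated in the labels. Trimmed means between the 2nd and 98th percentiles were 249.5 to 249.6 on all arrays, so arrays had been scaled before deposit and were used as they stood. The 66 controls among 12488 probe sets were left out. Names came from the platform annotation, updated by gene identifier for 10817 of 10833 probe sets with 1 gene, while 396 had several genes and 1193 none.

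Values were floored, log2-transformed, filtered and fitted with limma 3.58.1 in R 4.3.3 (lmFit, eBayes with an intensity trend, two-sided). The fit has 2 residual degrees of freedom, to which the shared variance adds 7.51, and its 95% intervals use both. Ratios are antilogs of log2 changes. The fit was tested on simulated data with changes of 2 log2 units, larger than that of any member. That test says nothing about changes of the size seen in the members. SEs come from the limma fit. All members, genes of the activity and partner lists that passed (at most 8 of smallest p each), marker genes and the 3 nearest profiles were to be named. Klf4, Dusp1, Ier3, the Jun kinases, the Nab genes, Nptx1, Atf2 and Mapk8ip1 were chosen after their values were seen. The members and lists were chosen with earlier results of these data known. Alternatives were another floor, filter, scaling or variance model, the replicate block, and each array left out. The labels name no batch, and one that coincided with the groups cannot be told apart from them.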

Additional observations from a re-analysis of the deposited data

How the results depend on the processing

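No member probe set was called lower under any of the 14 alternatives, and none was called higher except 1 each without control replicate 1 (Egr1) and without control replicate 2 (Jund), a range of 0 to 1 with 1 array left out. At an unadjusted p under 0.05, 2 to 5 members were higher and 0 lower in every setting. Of 137 log2 changes recomputed for the 10 probe sets, 6 changed sign, all in Fosl2 or Junb. Fosl2 had 0.019 with a floor at the 40th percentile and -0.47 to 0.23 with 1 array left out. Junb (102363_r_at) had -0.0094 with quantile normalization, -0.00092 with median scaling and -0.22 to 0.24 with 1 array left out. The cause was not tested.

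Over all probe sets 747 passed, against 48 without the filter, 395 without the intensity trend and 303 to 749 with 1 array left out. Of the 56 genes in the activity and partner lists 11 passed, against 0 without the filter (18 at an unadjusted p under 0.05), 6 with a filter at the 60th percentile (41 tested), 7 without the intensity trend and 3 to 12 with 1 array left out. Same-numbered pools deviated from their group means with a correlation of 0.056 over 7453 probe sets. With 2 arrays a group this cannot show whether same-numbered pools were handled together, and the labels name no batch. With the replicate number as a block 892 probe sets passed, 0 members and 12 list genes among them, the added one being Klf4 (adjusted p = 0.0408). With 2 arrays a group, no change under 0.37 log2 units in size passed.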

Other observations

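Homer1, whose short activity-induced form loosens the postsynaptic scaffold, belongs to the activity list but was too dim to be tested. Probe set 104499_at read 58.3 and 101.4 in the transgenic pools and 23.2 and 17 in the control pools, the second control value being under the floor. A probe set of another accession, 104498_at, read 8.1 and 14.8 in the transgenic pools and 23.6 and 3.1 in the control pools, which overlap at the floor. Homer1 is named after its values were seen.

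Of the genes of both lists that passed, 3 had another tested probe set. Nr4a2 rose by 1.49 ± 0.34 at 92249_g_at (limma adjusted p = 0.0220) and Klf10 by 0.79 ± 0.16 at 99603_g_at (adjusted p = 0.0126), each from the accession of the first probe set. At 92249_g_at the control pools read 47.3 and 30.9, under the filter intensity of 49.4. That probe set was therefore tested only through the pools where it is high. Mafg had 0.68 ± 0.32 at 93406_at, from another accession, and did not pass there (adjusted p = 0.230).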
